A study of Mus musculus with 40 samples.

Results

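OTX015 was tested on B16F10 cells in culture: 8 of the 40 arrays of the series, 4 from untreated cultures and 4 from cultures given OTX015, chosen by their labels. B16F10 is an established mouse melanoma line, grown here in DMEM with fetal bovine serum. OTX015 is an inhibitor of the BET bromodomain proteins, readers of acetylated histones. The labels give neither dose nor duration and name no vehicle, and nothing in them says whether the 4 replicates were separate cultures, so p-values measure only the spread between these 8 samples, which may be technical. The other 32 arrays, of tumours, were not used for the comparison. Each array was hybridized with RNA labelled from the 3′ end, and its values are deposited RMA log2 intensities of 45141 probe sets.

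BET proteins bind acetylated lysines on chromatin and help RNA polymerase II leave the promoter of many genes by bringing the elongation factor P-TEFb. Inhibitors such as OTX015 occupy the acetyl-lysine pocket and release the proteins from chromatin. In melanoma the pigment cell factor MITF and the transcription factor MYC are among the best-known regulators of cell state. The groups described here are the housekeeping machineries and regulatory families beside these factors, from the polymerase and the ribosome to the lysosome, the cytoskeleton and signalling.

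The cells matched their label by markers: 9 of 9 melanocyte genes lay above the background level, against 0 of 8 fibroblast, 1 of 6 endothelial, 1 of 10 macrophage, 1 of 6 T cell, 2 of 5 keratinocyte and 1 of 2 erythroid genes. In bulk cultures fewer expressing cells and less RNA per cell cannot be told apart. The background level, log2 4.36, is the 95th percentile among the means of 79 probe sets for olfactory and vomeronasal receptors. Arrays of the same group correlated at 0.990 to 0.997 (Pearson's r over probe sets, which are not independent of each other). Treated replicate 1 stood apart in 5′ signal, and whether its RNA or its labelling differed was not tested. Its Gapdh 3′ probe set exceeded the 5′ one by 0.958, against -0.0513 to 0.0837 in the control cultures and -0.0383 to 0.0235 in the other treated ones. The 5′ probe sets of the poly-A spike controls averaged 4.16 on it and between 6.25 and 7.83 on the other 7 arrays. Each count of calls over all genes or over all measured members of a list was therefore also taken without this array. Of these counts, none of 4 or more given below moved by more than 1.5 times except where stated. Other counts, such as those of subgroups, of members above background and at a minimum fold, were not taken again. The 6 nuclear-retained RNAs measured were on average higher with treatment, at 5.50 to 5.74 in the control cultures and 6.02 to 6.40 with OTX015. Their part in the results was not tested.

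Each gene is described by its brightest probe set, and a gene was called where limma's adjusted p, over all probe sets, was under 0.05. Probe sets whose names end in _s_at or _x_at can match several transcripts. Those printed below for Mrpl19, Eef2k, Pgd, Mcoln1 and Tubb2a are of these classes. Over 17097 genes, 16.2% were called higher and 21.2% lower, 2775 and 3623 genes. Of the 9461 genes with a mean above background, 26.2% were called higher and 33.4% lower (59.6% in all), and these are the shares to set beside counts of members above background. Counts over all measured members of a list compare with the shares over 17097 genes only where many members lay below background. Receptor, adhesion and developmental families were of this kind. Where nearly all members lay above background, as in the proteasome (43 of 45), the shares above background are the ones to compare, and those over 17097 genes are too low. The groups did not overlap in 38.1% of all genes and in 58.8% of those with a mean above background. A change that starts or ends below the background level is bounded by the floor of the array, so its size is not comparable with that of a brighter gene. Changes of at least 2-fold were called for 531 genes higher and 908 lower. Among probe sets that name no gene, 19.2% were called, against 34.3% of those that name 1 gene.

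**Figure D1:**
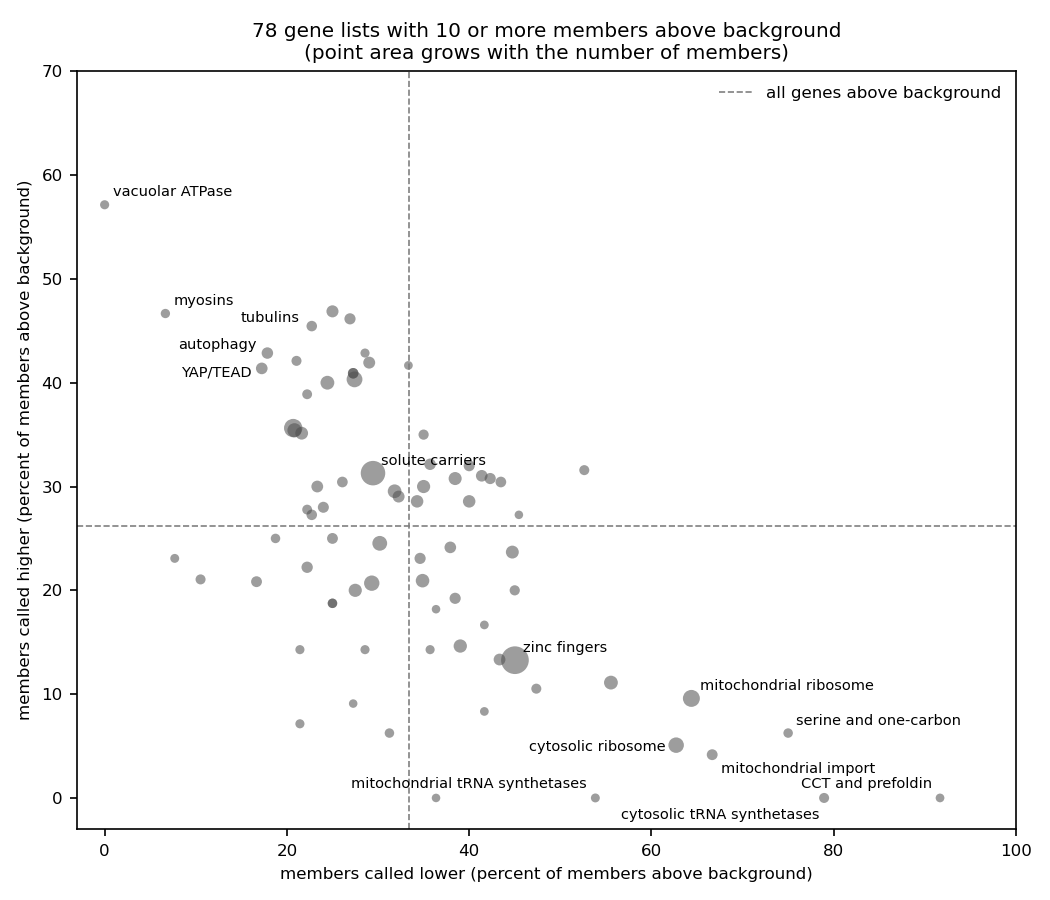
Share of each list's members called lower (x axis, percent of members above background) and higher (y axis) with OTX015 in culture, for 78 lists with 10 or more such members; the dashed lines are the shares over all genes above background, 33.4% lower and 26.2% higher. The lists of translation, chaperonin and mitochondrial import lie to the lower right, and the vacuolar ATPase and myosin lists to the upper left.

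Protein synthesis genes fell. The cytosolic aminoacyl-tRNA synthetases, which load amino acids onto tRNAs, had the most one-sided change of this group: 15 of 19 measured members were called lower and 0 higher (0 at an unadjusted limma p under 0.05), or 15 of the 19 above background (78.9%), with a median log2 change of -0.68. The largest falls were those of the enzymes for leucine, Lars (-1.43), methionine, Mars1 (-1.32), asparagine, Nars (-1.18), and glycine, Gars (-1.0). The Lars value was 8.99, 8.93, 8.74 and 8.80 in the control cultures and 7.35, 7.51, 7.42 and 7.46 with OTX015 (probe set 1448403_PM_at). The groups did not overlap, and Lars fell 2.69-fold (log2 change -1.43, SE 0.074, adjusted p = 1.84e-07). The mean of the 19 genes was 8.37 to 8.56 in the control cultures and 7.76 to 7.83 with OTX015, again without overlap. Of the mitochondrial synthetases, which serve the ribosome inside the organelle, 8 of 15 were called lower and 0 higher (median -0.49; 1 higher at an unadjusted p under 0.05). Their median was -0.20 both where all probe sets of a gene were averaged and with the probe set brightest over all 40 arrays. Tars2 changed by -1.55 and Lars2 by -0.90. Tars2 ended below background.

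Promoters of these genes are shown because 2 short motifs recurred in them. The canonical E-box, CACGTG, read by MYC with MAX and by MITF and TFEB among other factors, was searched on both strands in the 250 bases before RefSeq starts (GRCm38.p6), which were held for 13605 of the 17097 measured genes. It is its own reverse complement. It and the 2 motifs below were picked from 14 searched after their shares had been seen. It occurred in 1190 of 13605 promoters (8.75%) over all these genes, in 279 of 2601 promoters (10.7%) of genes above background that were called lower and in 234 of 2071 promoters (11.3%) of those called higher, against 284 of 3097 promoters (9.17%) of those not called. Among the cytosolic synthetases 3 of 13 promoters (23.1%) held it, among initiation and elongation factors 9 of 39 promoters (23.1%), among lysosomal genes 8 of 28 promoters (28.6%), and among mitochondrial ribosomal proteins 4 of 65 promoters (6.15%). Other searched motifs also differed in the synthetases from all genes above background. The CCAAT box was in 8 of 13 promoters (61.5%), against 41.4%. The amino acid response element was in 2 of 13 promoters (15.4%), against 2.21%. The GC box was less frequent, in 6 of 13 promoters (46.2%), against 65.7%. A GABP-type ETS site, CCGGAAGT, occurred in 671 of 13605 promoters (4.93%) over all genes and in 548 of 7769 promoters (7.05%) of genes above background, with 206 of 2601 promoters (7.92%) among those called lower, 122 of 2071 promoters (5.89%) among those called higher and 220 of 3097 promoters (7.1%) among those not called. It was in 7 of 47 promoters (14.9%) of cytosolic ribosomal proteins and in 8 of 65 promoters (12.3%) of mitochondrial ones. A match is a description of letters, not a binding site. In the E-box promoters of the falling synthetase genes Farsb (-0.86) and Iars (-0.87) and of the rising lysosomal genes Mcoln1 (1.5) and Gla (0.69), the capitals mark CACGTG. In those of the falling genes Mars1 (-1.32) and Mrpl3 (-1.38) they mark CCGGAAGT or its complement. Each is printed in the direction of its gene and ends at the base before the start. Farsb, Iars and Gla were chosen for their motif after their values had been seen.
Farsb, chr1:78488898-78489147 (-): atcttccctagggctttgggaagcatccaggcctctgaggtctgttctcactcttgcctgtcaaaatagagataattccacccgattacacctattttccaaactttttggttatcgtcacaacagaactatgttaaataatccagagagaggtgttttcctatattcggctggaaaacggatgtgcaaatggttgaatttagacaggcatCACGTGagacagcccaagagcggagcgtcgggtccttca
Iars, chr13:49681880-49682129 (+): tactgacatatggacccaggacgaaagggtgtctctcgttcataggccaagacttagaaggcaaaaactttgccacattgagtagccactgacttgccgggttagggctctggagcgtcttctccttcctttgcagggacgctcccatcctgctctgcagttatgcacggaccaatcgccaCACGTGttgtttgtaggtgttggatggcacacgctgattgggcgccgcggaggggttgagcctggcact
Mcoln1, chr8:3500269-3500518 (+): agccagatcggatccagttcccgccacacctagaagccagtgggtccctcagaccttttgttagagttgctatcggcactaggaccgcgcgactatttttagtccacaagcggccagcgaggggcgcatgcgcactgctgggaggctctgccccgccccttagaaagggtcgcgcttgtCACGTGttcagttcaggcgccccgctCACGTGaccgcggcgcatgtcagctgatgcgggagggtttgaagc
Gla, chrX:134601006-134601255 (-): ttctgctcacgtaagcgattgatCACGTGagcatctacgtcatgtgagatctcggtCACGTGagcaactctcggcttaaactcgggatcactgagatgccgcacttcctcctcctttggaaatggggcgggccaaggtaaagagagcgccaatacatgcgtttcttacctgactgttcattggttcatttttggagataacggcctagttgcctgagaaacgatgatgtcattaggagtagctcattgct
Mars1, chr10:127311787-127312036 (-): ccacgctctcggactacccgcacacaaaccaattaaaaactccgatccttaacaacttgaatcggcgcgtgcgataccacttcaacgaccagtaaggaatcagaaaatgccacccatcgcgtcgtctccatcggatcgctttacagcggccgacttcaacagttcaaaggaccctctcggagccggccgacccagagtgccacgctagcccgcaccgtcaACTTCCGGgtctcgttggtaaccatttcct
Mrpl3, chr9:105053018-105053267 (+): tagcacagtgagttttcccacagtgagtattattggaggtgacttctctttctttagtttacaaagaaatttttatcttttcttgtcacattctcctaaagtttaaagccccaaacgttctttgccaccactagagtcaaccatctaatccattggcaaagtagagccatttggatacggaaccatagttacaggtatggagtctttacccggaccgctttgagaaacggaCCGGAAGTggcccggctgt
The E-box occurred upstream of genes called in both directions. Its first base lay 39 bases before the start of Farsb, 69 before Iars, 71 and 45 before Mcoln1 and 227 and 194 before Gla.

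Ribosomal protein genes fell by small amounts. Of the cytosolic ones, 37 of 60 were called lower and 3 higher (median -0.25), or 37 of the 59 above background (62.7%), but only 3 fell by at least 1.5-fold. Rpl3 changed by -0.63, Rpl13a by -0.59 and Rps14 by -0.57, and Rps2 rose by 0.29. Rpl14 had a change of -0.96, but its control mean of 6.62 was below those of the 4 others, which lay above 11.86. Ribosomal protein genes have near-identical pseudogene copies, so their probe sets may share signal. The mitochondrial ribosomal proteins had a larger median change: 47 of 73 measured members were called lower and 7 higher (median -0.55), or 47 of the 73 above background (64.4%), and 32 of these falls reached 1.5-fold. Mrpl19, of the large subunit, was at 7.81, 7.83, 8.23 and 8.05 in the control cultures and 6.03, 5.91, 6.19 and 6.10 with OTX015 (probe set 1421914_PM_s_at). It fell 3.79-fold without overlap (log2 change -1.92, SE 0.10, adjusted p = 2.27e-07), followed by Mrps35 (-1.64), Mrpl53 (-1.57) and Mrpl3 (-1.38). In the other direction Mrps6 rose by 1.09 and Mrpl49 by 0.80.

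Of the initiation and elongation factors with their kinases, 25 of 48 were called lower and 5 higher (median -0.25). The initiation factor subunits Eif3m, Eif2s2 and Eif1a changed by -1.09, -1.05 and -0.98. The largest change was that of Eef2k, a kinase that restrains the elongation factor eEF2. Its values were 8.89, 8.76, 8.38 and 8.65 in the control cultures and 6.24, 5.94, 5.78 and 6.03 with OTX015 (probe set 1437829_PM_s_at), a 6.38-fold fall without overlap (log2 change -2.67, SE 0.12, adjusted p = 8.82e-08). Eif4ebp2, which encodes a repressor of cap-dependent initiation, rose by 1.30. Eef2k and Eif4ebp2 were the largest fall and the largest rise of this list.

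**Figure D2:**
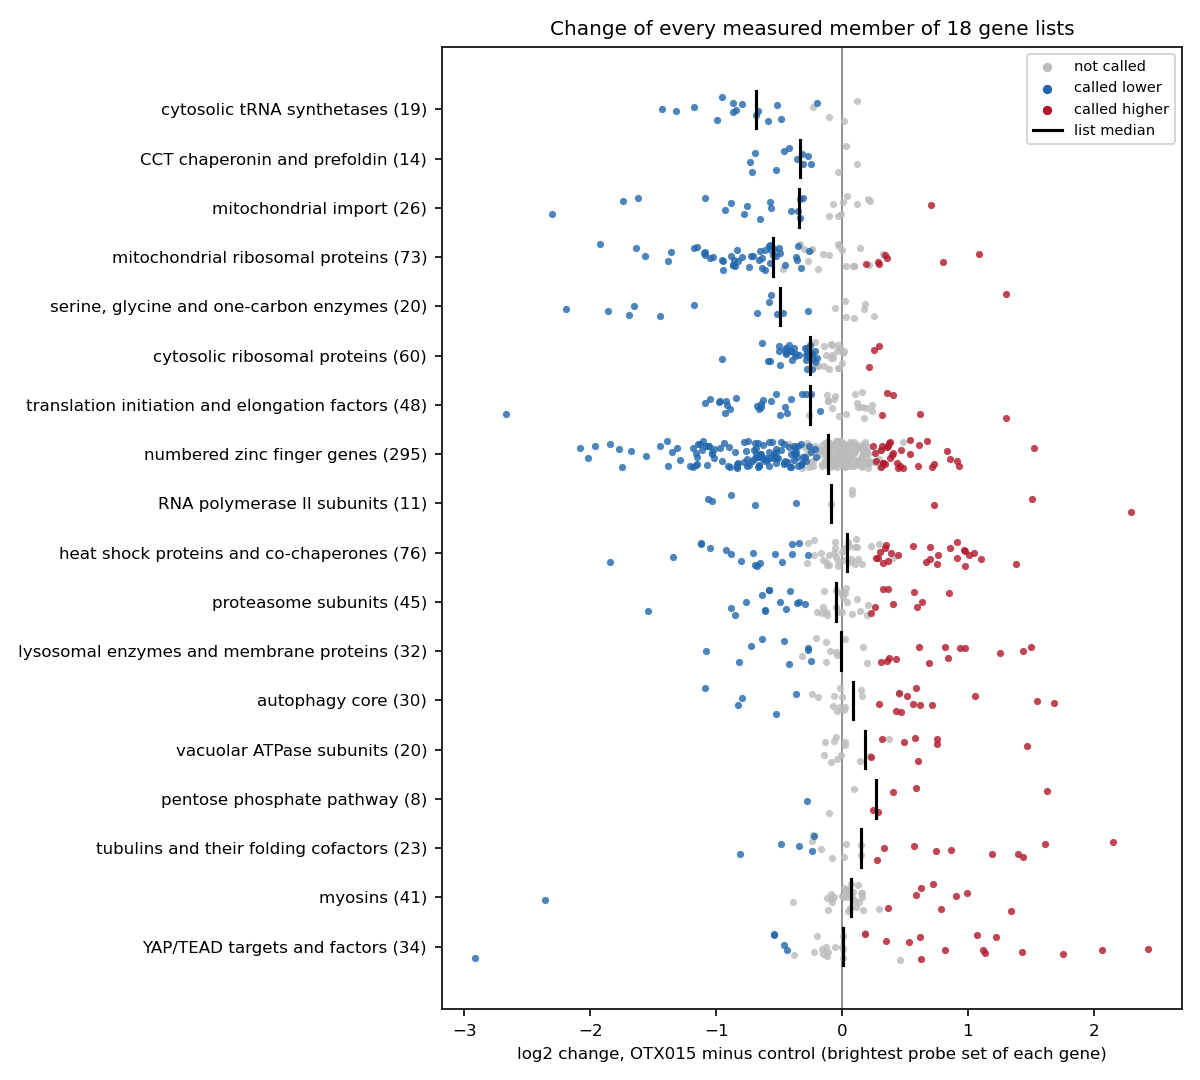
Log2 change (x axis, OTX015 minus control, 4 cultures each) of every measured member of 18 lists, with the number measured in brackets; red and blue points were called higher and lower at limma adjusted p under 0.05, grey points were not, and the black bar is the list median. Nearly all called members of the translation and chaperonin lists lie left of 0, while the heat shock and proteasome lists spread to both sides.

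Chaperone lists differed. Of the 9 measured subunits of CCT, the ring that folds actin and tubulin, 7 were called lower and 0 higher (median -0.31). At an unadjusted p under 0.05 0 were higher. Prefoldin, which hands clients to CCT, had 4 of 5 lower, with Pfdn4 at -0.73, Pfdn1 at -0.72 and Pfdn2 at -0.69. Over all heat shock proteins and co-chaperones, 25 of 76 were called higher and 18 lower. Part of the list was sorted by compartment after values had been seen, and 11 of 14 cytosolic and nuclear chaperones were called higher and 1 lower, and 6 of 8 endoplasmic reticulum chaperones were higher and 0 lower. In contrast, 7 of 8 mitochondrial chaperones were lower and 0 higher. The 46 members in none of these subgroups had 8 called higher and 10 lower, among them Dnajc24 (-1.34), so the order by compartment holds only for the genes sorted. The subgroups do not hold every measured chaperone of the compartment they are named for. At an unadjusted p under 0.05 the counts of 0 became 0 lower for the endoplasmic reticulum and 0 higher for mitochondria. The inducible HSP70 gene Hspa1b, which has a near-identical copy in Hspa1a, rose by 0.98, Hsp90aa1 by 0.97 and their partner Dnajb1 by 1.05. Hspa9, the HSP70 of the mitochondrial matrix, was at 10.24, 10.30, 10.05 and 10.21 in the control cultures and 8.0, 8.57, 8.52 and 8.35 with OTX015 (probe set 1418504_PM_at). It fell 3.59-fold (log2 change -1.84, SE 0.12, adjusted p = 8.9e-07), with no overlap. The co-chaperones Dnaja3 and Dnajc15, which work with it, changed by -1.05 and -1.12, and the co-chaperonin gene Hspe1 by -0.67. Hspa1b, Hsp90aa1, Dnaja3 and Hspe1 were also named after their values had been seen.

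The mitochondrial import machinery, which carries nuclear-encoded proteins across both membranes, fell as well: 16 of 26 measured members were called lower and 1 higher (median -0.34), or 16 of the 24 above background (66.7%). Tomm40l, a second form of the outer membrane channel, was at 7.80, 7.78, 8.11 and 7.94 in the control cultures and 5.75, 5.43, 5.73 and 5.51 with OTX015 (probe set 1429382_PM_at). The groups were far apart, and the fall was 4.93-fold (log2 change -2.30, SE 0.10, adjusted p = 6.24e-08). The small intermembrane chaperones Timm10 and Timm10b changed by -1.74 and -1.09, and Timm21, of the inner membrane translocase, by -1.62. The 1 rise was that of Tomm34 (0.71), a cytosolic co-chaperone of import.

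**Figure D3:**
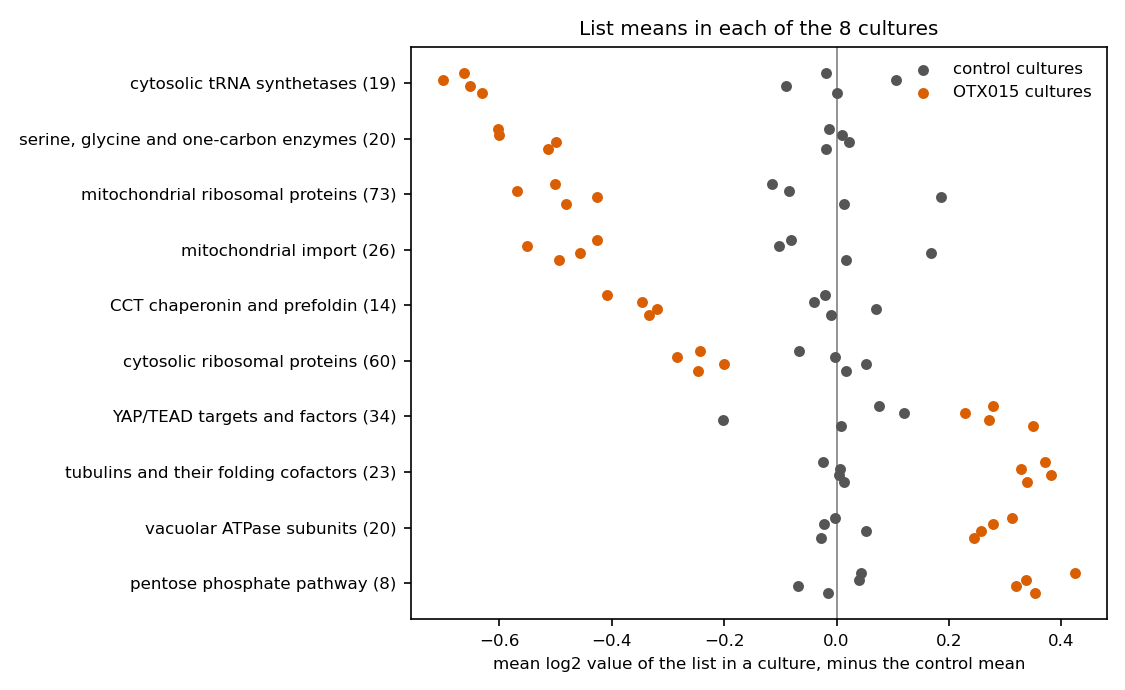
Mean log2 value of a list's members in each culture, minus the mean of the 4 control cultures (x axis), for 10 lists (number of members in brackets); grey points are control and orange points treated cultures, 4 each. In all 10 lists the treated cultures lie on 1 side of the control cultures, by the least for the YAP/TEAD list, where the groups are 6.11 to 6.43 and 6.54 to 6.66.

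In metabolism, the enzymes of serine, glycine and one-carbon supply fell: 12 of 20 measured members were called lower and 1 higher (median -0.49), or 12 of the 16 above background (75%). Cth, which makes cysteine from cystathionine, was at 7.94, 7.57, 7.98 and 7.64 in the control cultures and 5.74, 5.36, 5.60 and 5.66 with OTX015 (probe set 1426243_PM_at), a fall of 4.58-fold (log2 change -2.20, SE 0.11, adjusted p = 1.9e-07). Serine synthesis genes fell at the first and last steps, with Phgdh at -1.45 and Psph at -1.86, and the middle enzyme gene Psat1 changed by -0.67. The mitochondrial folate enzymes followed, with Shmt2 at -1.17, Mthfd1l at -1.69 and Aldh1l2 at -1.65. Mtr, the methionine synthase, was the 1 member called higher (1.30, SE 0.091). Phgdh, Psat1 and Shmt2 were named after their values had been seen.

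The pentose phosphate pathway, the source of NADPH and ribose, had 5 of 8 called higher and 1 lower. The count higher was 3 without control replicate 3 or without treated replicate 1, 2 or 4. Pgd, its 6-phosphogluconate dehydrogenase, stood at 8.66, 8.53, 8.51 and 8.50 in the control cultures and 10.32, 10.08, 10.10 and 10.21 with OTX015 (probe set 1436771_PM_x_at). It rose 3.09-fold without overlap (log2 change 1.63, SE 0.074, adjusted p = 8.55e-08). The cytosolic NADPH source Idh1 changed by 1.03 and Acly, which makes cytosolic acetyl-CoA from citrate, by 1.47. Over the whole citric acid cycle list the calls were split, 9 of 28 higher and 12 lower: Ogdh rose by 1.11, while Suclg2 changed by -1.93, Idh3b by -0.98, the pyruvate dehydrogenase subunit gene Pdha1 by -0.77 and its kinase gene Pdk1 by -1.52. Fatty acid oxidation was split too, 9 of 27 higher and 10 lower, with its gatekeeper Cpt1a up by 1.61 and the matrix enzyme genes Decr1 and Echs1 at -0.94 and -0.90. Among nucleotide enzymes (8 of 25 higher and 10 lower) the salvage kinase gene Dck and the reductase gene Rrm2 rose by 0.82 and 0.81, whereas Ctps2, Adsl and Tk1 changed by -1.61, -1.03 and -0.92.

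Each of the lysosomal and autophagy lists had more members called higher than lower. The vacuolar ATPase, the proton pump that acidifies lysosomes and melanosomes, had 8 of 20 called higher and 0 lower, or 8 of the 14 above background (57.1%). The median over all 20 was 0.18, and 0 were lower at an unadjusted p under 0.05. Its membrane subunit gene Atp6v0a1 was at 7.2, 7.14, 6.63 and 6.92 in the control cultures and 8.95, 8.37, 8.16 and 8.29 with OTX015 (probe set 1417632_PM_at). It rose 2.77-fold (log2 change 1.47, SE 0.17, adjusted p = 6.98e-05), and Atp6v1e1, Atp6v0a2 and Atp6v0d1 rose by 0.75, 0.75 and 0.60. Of the core autophagy genes, 12 of 30 were called higher and 5 lower (median 0.09), or 12 of the 28 above background (42.9%). The kinase genes that start autophagy led the rises. Ulk1 was at 5.45, 5.39, 5.08 and 5.43 in the control cultures and 7.40, 6.93, 6.83 and 6.92 with OTX015 (probe set 1448370_PM_at), a 3.21-fold rise without overlap (log2 change 1.68, SE 0.13, adjusted p = 3.03e-06), and Ulk2 rose by 1.55. The lipid transfer gene Atg2a and the phosphoinositide reader gene Wipi2 rose by 1.06 and 0.72, whereas the conjugation enzyme genes Atg10 and Atg3 changed by -1.09 and -0.52.

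Of the lysosomal enzymes and membrane proteins, 13 of 32 were called higher and 9 lower (median -0.01). Mcoln1, the calcium channel of lysosomes, stood at 5.96, 6.03, 5.68 and 5.80 in the control cultures and 7.43, 7.41, 7.34 and 7.32 with OTX015 (probe set 1416672_PM_s_at), a 2.84-fold rise (log2 change 1.5, SE 0.083, adjusted p = 2.85e-07). The hydrolase genes Galns, Man2b1 and Fuca1 rose by 1.43, 1.25 and 0.98. Hexa and Aga, also hydrolases, changed by -1.08 and -0.82, and Tfeb, the factor that drives many lysosomal genes, by -0.72. Of the calls, 9 rises and 4 falls reached 1.5-fold. The mean of the list was 7.78 to 7.94 in the control cultures and 7.99 to 8.03 with OTX015, without overlap, and its median change was 0.15 where all probe sets of a gene were averaged.

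**Figure D4:**
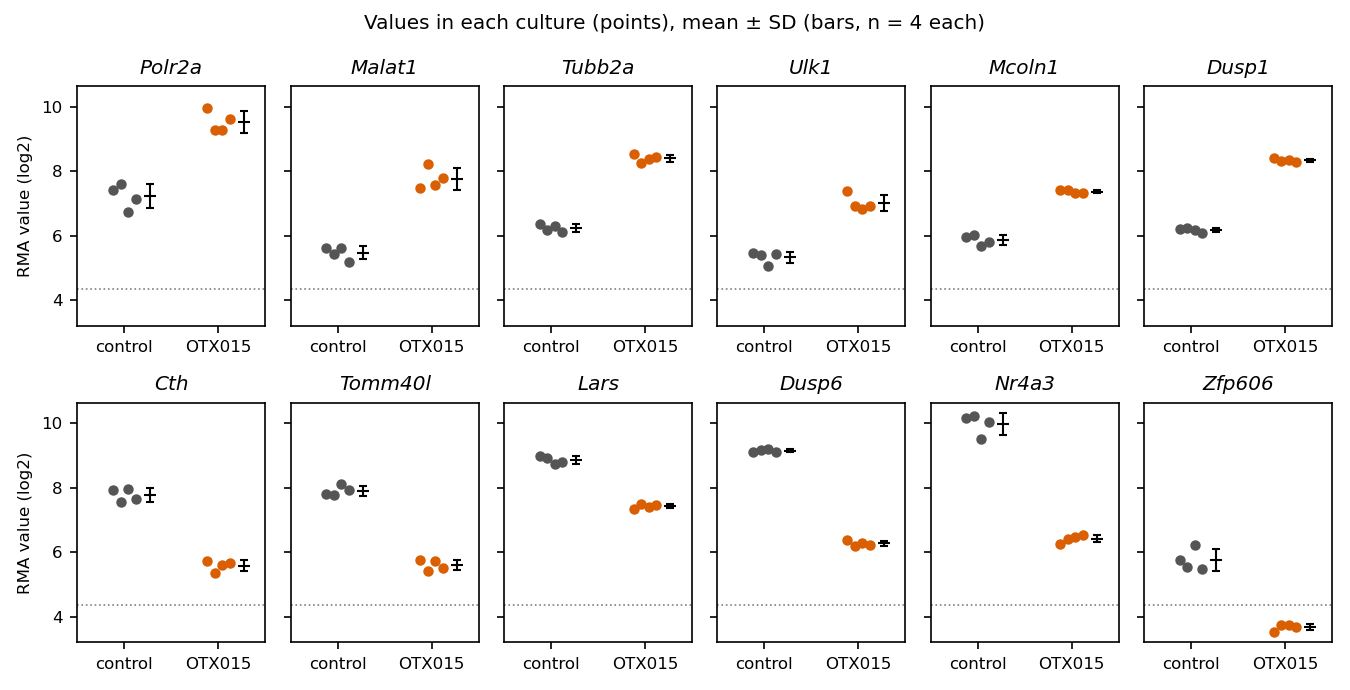
RMA values (y axis, log2) of 12 genes in each of the 4 control (grey) and 4 OTX015-treated (orange) cultures; points are cultures, the black mark and bar the mean and SD, and the dotted line the background level of 4.36. For each of the 12 genes the groups do not overlap, and the treated values of Zfp606 lie below background.

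The transcription machinery changed unevenly. Polr2a, the catalytic subunit of RNA polymerase II, was at 7.43, 7.62, 6.76 and 7.15 in the control cultures and 9.97, 9.27, 9.27 and 9.62 with OTX015 (probe set 1426242_PM_at). It rose 4.9-fold without overlap (log2 change 2.29, SE 0.20, adjusted p = 7.23e-06), and treated replicate 1 was its highest value. The second largest subunit gene, Polr2b, rose by 0.73 and the small shared subunit gene Polr2l by 1.51. Among the falls, the associated protein gene Polr2m and the subunit genes Polr2e, Polr2c and Polr2h changed by -1.07, -1.03, -0.88 and -0.69. The count over 11 subunits was 3 higher and 5 lower. Elongation factors had 10 of 26 called higher and 6 lower (median 0.16), with the PAF complex genes Rtf1, Paf1 and Ctr9 up by 1.20, 0.81 and 0.64, and Cdc73 of the same complex, named after its value had been seen, at -0.27. The P-TEFb cyclin gene Ccnt1 rose by 0.66. The elongation factor genes Tcea1 and Nelfcd, the latter of the pausing complex NELF, changed by -1.03 and -0.69.

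Integrator, which cleaves nascent snRNAs and paused transcripts, had 6 of 14 called higher and 4 lower, Ints7, Ints9 and Ints1 among the rises at 0.88, 0.81 and 0.78, and Ints12 at -1.07. Mediator had 7 of 32 called higher and 11 lower, and the general transcription factors 7 of 29 higher and 6 lower. Among members above background, these lists were near the shares over all such genes in 1 direction or both. Med16 rose by 0.90 and Med6 changed by -1.21; Taf4b and Taf13 rose by 1.08 and 1.04, and Taf1b, of the RNA polymerase I selectivity factor, changed by -1.59. Polymerases I and III had 3 of 14 called lower and 1 higher, below the share over all genes above background.

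RNA processing lists differed. Of the core spliceosome proteins, 16 of 42 were called lower and 6 higher (median -0.15), or 16 of the 41 above background (39%), near the share over all genes above background, with the U2 component genes Sf3a3 and Snrpb2 at -1.0 and -0.81. The RNA exosome, the 3′ to 5′ decay complex, had 6 of 8 subunits lower and 0 higher (median -0.51; 0 higher at an unadjusted p under 0.05), Exosc3 and Exosc1 at -1.02 and -0.83. The scavenger decapping enzyme gene Dcps changed by -1.29. SR and hnRNP splicing regulators were split, 13 of 70 higher and 17 lower, with Hnrnpul2 up by 1.03 and Hnrnpa1 and Hnrnpd at -1.02 and -0.92. Their relative Hnrnpa2b1 had probe sets called in opposite directions and is taken up with such genes below. Nuclear export and import genes were split as well, 11 of 42 higher and 12 lower, with Kpna2 up by 0.96 and Nup37 and Nup210 at -1.98 and -1.88.

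Proteasome genes were divided. Over the list, 15 of 45 were called lower and 9 higher. Of the 43 above background, 34.9% were lower and 20.9% higher, against 33.4% and 26.2% over all genes above background. Of the non-ATPase subunits of the regulatory particle, 6 of 13 were higher and 1 lower, with Psmd3, Psmd2 and Psmd1 at 0.85, 0.63 and 0.60. Of the catalytic beta ring, 4 of 11 were lower and 1 higher, a share lower near that over all genes above background. The alpha ring had 2 of 8 lower and 0 higher, and the ATPases of the regulatory particle 2 of 5 lower and 0 higher. At an unadjusted limma p under 0.05, 0 and 0 of these were higher. Of the assembly chaperones 4 of 4 were lower and 0 higher. The beta falls included both the constitutive catalytic gene Psmb5 (-0.88) and its interferon-inducible relatives Psmb10 (-1.54) and Psmb8 (-0.85), beside the activator gene Psme1 (-0.76). These modules were counted after the values had been seen. Ubiquitin-conjugating enzymes (9 of 31 higher and 7 lower), cullin adaptors (35 of 128 higher and 22 lower) and ubiquitin-specific proteases (13 of 44 higher and 8 lower) were divided. Ube2o and Usp12 rose by 1.05 and 1.10, the cullin genes Cul5 and Cul2 changed by -1.19 and -1.03, and Klhl30 by -2.15.

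Among chromatin regulators no list moved one way. Histone methyltransferases and demethylases had 14 of 57 called higher and 15 lower, the enhancer methyltransferase gene Kmt2c up by 0.94 and Prdm16 at -2.61. SWI/SNF subunits (9 of 23 lower and 5 higher, or 3 higher without treated replicate 4) included Smarcd3 at -1.35 and Smarcc1 at 0.64. Of condensin and cohesin (9 of 24 higher and 6 lower), the condensin gene Ncaph rose by 0.76, whereas the cohesin genes Pds5b, Stag2 and Rad21 changed by -0.99, -0.85 and -0.54. DNA repair by excision or mismatch (12 of 32 lower and 9 higher) was divided, with Exo1 and Xpc each up by 1.04 and Neil1 and Parp2 at -1.58 and -1.14. Of the homologous recombination and Fanconi genes, 15 of 36 were called higher and 9 lower, with Fanca up by 0.85 and Rad51d at -1.02. Numbered zinc finger genes, gathered by symbol and not by protein domain, fell more often. Of 295 measured members, 114 were called lower and 33 higher, with a median of -0.11. Above background the count lower was 95 of the 211 above background (45%). Zfp606 was at 5.77, 5.53, 6.24 and 5.49 in the control cultures and 3.54, 3.75, 3.74 and 3.69 with OTX015 (probe set 1454951_PM_at), a fall from above to below background in every culture (log2 change -2.08, SE 0.15, adjusted p = 1.62e-06). Its other probe set, the brighter one over all 40 arrays, changed by -0.14 (adjusted p = 0.4). Zfp462 and Zfp467 changed by -2.02 and -1.96, and Zfp672 rose by 1.53.

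The list of tubulins and folding cofactors had 10 of 23 called higher and 5 lower. The count lower was 3 without control replicate 4 or without treated replicate 2. Of the alpha and beta tubulin chains, a subgroup set after values had been seen, 7 of 11 were called higher and 0 lower (median 0.87; 0 lower at an unadjusted p under 0.05). The other 12 members had 3 called higher and 5 lower. Tubb2a was at 6.38, 6.19, 6.30 and 6.11 in the control cultures and 8.54, 8.25, 8.38 and 8.44 with OTX015 (probe set 1427347_PM_s_at), a 4.45-fold rise without overlap (log2 change 2.15, SE 0.083, adjusted p = 2.81e-08). Tubb3, usually a neuronal chain, rose by 1.62, Tubb6 by 1.44 and Tubb4b by 1.40, while the folding cofactor gene Tbce changed by -0.81. Tubulin genes are near-identical in parts, and the Tubb2a probe set is of the class that can match several transcripts, so signal may be shared between family members. Myosins had 8 of 41 called higher and 1 lower, or 7 of the 15 above background (46.7%), with the motor genes Myo6, Myo1e and Myo10 up by 1.34, 0.99 and 0.90. The 1 fall was that of the regulatory light chain gene Myl9, at 5.50, 5.86, 5.56 and 5.86 in the control cultures and 3.45, 3.25, 3.23 and 3.38 with OTX015 (probe set 1452670_PM_at). All treated values lay below background, and the change was -2.36 (SE 0.098, adjusted p = 4.51e-08).

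Actin regulators were divided (14 of 47 lower and 10 higher). The bundling and crosslinking genes Fscn1, Actn1 and Flna rose by 1.25, 1.07 and 0.96, and the filament-elongating genes Diaph2 and Vasp changed by -1.69 and -1.01.

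Genes of the YAP/TEAD pathway, which reads cell shape and contact, were called higher in 14 of 34 cases and lower in 5, or higher in 12 of the 29 above background (41.4%). The median over all 34 was 0.01. Without control replicate 3 the count lower was 8. The DNA-binding partner genes Tead1 and Tead4 rose by 1.22 and 0.62, the angiomotin genes Amot and Amotl2 by 1.14 and 1.07, and the coactivator gene Yap1 itself changed by -0.44. Of the targets, Crim1 was at 6.08, 6.34, 5.53 and 5.92 in the control cultures and 8.16, 8.32, 8.42 and 8.70 with OTX015 (probe set 1426951_PM_at), a 5.41-fold rise (log2 change 2.43, SE 0.16, adjusted p = 1.17e-06). The cofactor gene Vgll3 rose by 1.76, Gadd45a by 2.07 and the matricellular genes Ccn1 and Ccn2 by 1.43 and 0.82, Ccn2 from below background. Rbms3 changed by -2.91. The TEAD, angiomotin, Yap1 and Ccn2 values are given outside the naming rule, after they had been seen.

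Adhesion families held a few large changes among many members near background. Integrins had 5 of 24 called lower (20.8%, near the 21.2% over all genes) and 1 higher. The laminin receptor gene Itga6 rose by 1.24 and the fibronectin and VCAM receptor gene Itga4 changed by -1.07. The basement membrane gene Nid1 changed by -1.91. Cadherins and protocadherins had 10 of 61 lower and 6 higher (16.4% and 9.84%, against 21.2% and 16.2% over all genes). Of these, Cdh2 rose by 0.83, Pcdh19 by 1.64 from below background, and Cdh13 changed by -1.46. The connexin genes Gja3 and Gjb2 changed by -2.10 and -1.82. Among EPH receptors, which signal between touching cells, Epha7 and Epha4 rose by 2.48 and 1.78, both from control means below background, and Epha3 changed by -2.0. The Epha7 probe set brightest over all 40 arrays changed by 0.21 (adjusted p = 0.288). The semaphorin receptor gene Nrp2 rose by 1.29, and its ligand gene Sema3c changed by -1.16. Glycan-making enzymes were called 20 higher and 14 lower of 102, with Galnt6, Hs6st1 and Ext1 up by 1.73, 1.67 and 1.60 and St6gal1 at -1.28.

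Feedback phosphatases of MAP kinase signalling separated by gene. Of the dual-specificity phosphatase, SPROUTY and SPRED genes, 11 of 29 were called lower and 6 higher. Dusp6, a feedback inhibitor made in response to ERK, was at 9.11, 9.19, 9.22 and 9.12 in the control cultures and 6.39, 6.21, 6.31 and 6.22 with OTX015 (probe set 1415834_PM_at). It fell 7.35-fold (log2 change -2.88, SE 0.065, adjusted p = 9.43e-10), with no overlap. Dusp1, a nuclear phosphatase of p38, JNK and ERK made early after stress, was at 6.21, 6.23, 6.20 and 6.09 in the control cultures and 8.41, 8.31, 8.36 and 8.28 with OTX015 (probe set 1448830_PM_at). It rose 4.47-fold, also without overlap (log2 change 2.16, SE 0.062, adjusted p = 3.97e-09). Dusp14 and Dusp10 rose by 1.99 and 1.13, and Spred2 changed by -1.13.

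The promoter of Dusp1 is shown with that of Tubb2a because both rising genes hold the cyclic AMP response element TGACGTCA, read by CREB and ATF factors and equal to its own reverse complement. Over all genes 343 of 13605 promoters (2.52%) held it. Over genes above background the element was in 86 of 2071 promoters (4.15%) of those called higher, 65 of 2601 promoters (2.5%) of those called lower and 95 of 3097 promoters (3.07%) of those not called. It was in 2 of 21 promoters (9.52%) of the tubulin list and in 4 of 47 promoters (8.51%) of cytosolic ribosomal proteins, a list mostly called lower. The capitals mark it. The Dusp1 promoter also holds the E-box CACGTG, which is left in lower case here.
Tubb2a, chr13:34078009-34078258 (-): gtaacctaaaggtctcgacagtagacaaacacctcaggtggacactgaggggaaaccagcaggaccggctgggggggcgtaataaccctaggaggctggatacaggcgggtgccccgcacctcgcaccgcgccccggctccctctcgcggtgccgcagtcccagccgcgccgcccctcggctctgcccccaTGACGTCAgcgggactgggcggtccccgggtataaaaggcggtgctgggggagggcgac
Dusp1, chr17:26508473-26508722 (-): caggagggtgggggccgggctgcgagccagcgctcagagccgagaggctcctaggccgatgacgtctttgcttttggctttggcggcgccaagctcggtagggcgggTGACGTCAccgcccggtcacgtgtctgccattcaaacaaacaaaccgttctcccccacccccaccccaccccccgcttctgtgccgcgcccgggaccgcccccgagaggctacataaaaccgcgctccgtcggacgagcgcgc
The first base of the element lay 59 bases before the start of Tubb2a and 143 before that of Dusp1.

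Of the components of cyclic AMP signalling, 18 of 67 were called lower and 12 higher. The phosphodiesterase genes Pde4b and Pde4d, which remove cyclic AMP, changed by -2.61 and -1.63, and the adenylyl cyclase gene Adcy7, which makes it, by -2.02. The anchor genes Akap12 and Akap13 rose by 1.87 and 1.52, and the protein kinase A subunit gene Prkar2b by 1.26. The named falls thus held genes of both synthesis and removal, and Akap12 rose from a control mean below background.

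The TGF-beta and BMP list was evenly divided, 13 of 62 higher and 13 lower. Among targets, the inhibitor of differentiation Id3 was at 3.88, 4.12, 4.21 and 3.96 in the control cultures and 6.62, 6.47, 6.76 and 6.60 with OTX015 (probe set 1416630_PM_at). It rose 5.92-fold from below to above background (log2 change 2.57, SE 0.091, adjusted p = 1.62e-08), and Id1 rose by 1.45 in the same way. Among receptors, Acvrl1 and Tgfbr2 changed by -2.0 and -1.39, and the decoy receptor gene Bambi rose by 0.78. Smad5, a BMP-responsive transducer, changed by -0.90. In the WNT pathway (9 of 61 higher and 6 lower) the frizzled receptor genes went separate ways, with Fzd5 and Fzd4 up by 2.55 and 1.41 and Fzd6 at -1.56. The secreted Dickkopf-family gene Dkk3 changed by -1.86. The NOTCH ligand gene Jag1 rose by 1.55, from below background.

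Receptor tyrosine kinases had 5 of 38 called lower (13.2%, against 21.2% over all genes) and 1 higher (2.63%, against 16.2%). The neuregulin receptor gene Erbb3 changed by -1.53, the collagen receptor gene Ddr2 by -1.30 and Kit, the stem cell factor receptor of melanocytes, by -1.05. Igf1r rose by 0.83. Downstream, in the insulin and IGF list (12 of 42 higher and 8 lower), the PI3 kinase genes Pik3r1 and Pik3cb rose by 1.57 and 1.35, and Rictor, Ddit4 and Irs1, which act on or through mTOR signalling, changed by -1.45, -1.27 and -0.93. The EGF receptor ligand genes Hbegf and Tgfa changed by 1.56 and -1.34, in opposite directions. The cytokine receptor gene Lifr rose by 1.68, and Il13ra1 and Il10rb changed by -2.11 and -1.54, Il13ra1 to below background. The cell cycle genes Ccnd3 and Ccng1 rose by 1.06 and 0.93, and Ccnd1, the cyclin that starts G1 progression, and its kinase gene Cdk4 changed by -1.66 and -0.66. In the cyclin list 14 of 46 were called lower and 12 higher.

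Transcription factor families held some of the largest falls. Nr4a3, an orphan nuclear receptor made early after stimulation, was at 10.16, 10.23, 9.51 and 10.03 in the control cultures and 6.27, 6.41, 6.47 and 6.54 with OTX015 (probe set 1438796_PM_at). It fell 11.8-fold without overlap (log2 change -3.56, SE 0.14, adjusted p = 3.61e-08), and averaged over all its probe sets it changed by -1.28. Its close relative Nr4a1 changed by -0.97, whereas Nr4a2, the third member, rose by 1.27. Of all nuclear receptors 10 of 39 were called lower and 3 higher, and without treated replicate 1 the rises numbered 1 and the falls 10. HOX genes had 7 of 34 called lower and 0 higher (1 higher at an unadjusted p under 0.05), and 7 lay above background, 2 of them called lower. The 20.6% called lower over all 34 was near the 21.2% over all genes. Hoxa10 was at 8.25, 8.19, 8.45 and 8.24 in the control cultures and 5.94, 6.20, 6.35 and 6.42 with OTX015 (probe set 1431475_PM_a_at), a 4.16-fold fall (log2 change -2.06, SE 0.11, adjusted p = 1.9e-07), and Hoxd13 changed by -1.75. Of the clock-controlled genes, Dbp changed by -2.55 to below background and Bhlhe40 by -1.72. Klf15 and Klf9 changed by -2.01 and -1.24, Klf15 to below background. The ETS factor genes Elk3 and Gabpa, the DNA-binding subunit of GABP, changed by -1.83 and -1.36, and Elf1 rose by 1.37. Mef2c changed by -1.83, and Sox11, Sox4 and Meis2 rose by 1.01, 0.94 and 1.18.

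Vesicle traffic, transport and redox genes held single large changes in lists that were divided. Of RAB GTPases (13 of 55 lower and 9 higher), Rab32, which delivers pigment enzymes to melanosomes, was at 7.57, 7.68, 7.92 and 7.69 in the control cultures and 3.79, 4.51, 4.59 and 4.65 with OTX015 (probe set 1416527_PM_at). It fell 10.1-fold (log2 change -3.33, SE 0.17, adjusted p = 1.87e-07), to about the background level. Its relative Rab29 changed by -2.03 and Rab17 by -1.83, while Rab11b rose by 0.84. The vesicle tether gene Sytl2 and the synaptotagmin gene Syt4 changed by -2.0 and -2.01, and Syt11 rose by 2.0. Coat and translocation genes of the endoplasmic reticulum had 18 of 48 called higher and 11 lower, with Sec16a and Sec24b up by 0.82 and 0.76.

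Of 321 solute carriers, 55 were called higher and 59 lower. Slc44a3, of the choline transporter-like family, was at 7.5, 7.78, 7.85 and 7.66 in the control cultures and 3.65, 3.43, 4.09 and 3.98 with OTX015 (probe set 1425109_PM_at), below background in every treated culture (log2 change -3.91, SE 0.14, adjusted p = 1.68e-08). The amino acid transporter gene Slc6a15 changed by -3.03, and the ion transporter gene Slc12a2 and the creatine transporter gene Slc6a8 rose by 1.74 and 1.51. Abcb1b, a drug efflux pump, rose by 1.80. The chloride channel relatives Ttyh3 and Ttyh2 rose by 1.74 and 1.64. Among selenoproteins and peroxidases (12 of 36 lower and 9 higher), the mitochondrial thioredoxin reductase gene Txnrd2 changed by -2.64 and its cytosolic counterpart Txnrd1 rose by 0.82. The methionine sulfoxide reductase genes Msrb3 and Msrb2 changed by -2.36 and -1.39, and Msrb1 rose by 1.25. The ceramide synthase gene Cers6 rose by 1.80, and the glucosylceramide synthase gene Ugcg changed by -0.81.

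Genes can have probe sets on different parts of their transcripts. Of 3498 genes with at least 2 probe sets above background, all were called higher for 595 genes and all lower for 719. For 108 genes, at least 1 probe set was called higher and at least 1 lower. The widest gap was that of Ramp2, a co-receptor of the calcitonin receptor family. One Ramp2 probe set was at 8.86, 9.75, 9.91 and 9.76 in the control cultures and 11.46, 11.69, 10.84 and 11.40 with OTX015 (log2 change 1.78, SE 0.23, adjusted p = 0.000156), and another at 6.03, 6.28, 5.92 and 5.77 in the control cultures and 3.87, 4.15, 3.71 and 3.87 with OTX015 (log2 change -2.10, SE 0.12, adjusted p = 3.89e-07). Neither overlapped between groups. St3gal6, a sialyltransferase, had a probe set at 7.45, 7.40, 6.97 and 7.25 in the control cultures and 9.17, 9.26, 9.24 and 9.28 with OTX015 and another at 5.87, 5.53, 5.77 and 5.70 in the control cultures and 4.51, 4.39, 4.58 and 4.33 with OTX015. Its brightest probe set, on which gene counts rest, fell (log2 change -1.19, SE 0.10, adjusted p = 6.31e-06). Sulf2, Brwd1, Dnlz, Kansl1l, Pign and Srpk2 came next. Brwd1, which encodes a bromodomain and WD repeat protein, had log2 changes of 1.94 and -0.92, and the splicing kinase gene Srpk2 of 1.23 and -1.06. For the hnRNP gene Hnrnpa2b1 the changes were 1.28 and -0.99, in probe sets of similar brightness. For these genes the direction given depends on the probe set, and which transcripts each detects was not tested. A fit over all 6 groups of the series, tumours included, lost the calls of Ccn2, Cdc73, Gla, Hspa1b, Id1, Kit, Psat1 and Yap1, whose values above rest on the spread of the 8 cultures alone.

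Counts of several other families, over all measured members, were as follows. Of 93 orphan and adhesion receptors coupled to G proteins 27 were above background, with 6 of 93 higher and 7 lower. Cytochrome P450 enzymes had 2 of 64 higher and 7 lower, and voltage-gated sodium and calcium channels 0 of 33 higher and 4 lower (2 higher at an unadjusted limma p under 0.05). Kinesins, motors of mitosis and transport, had 5 of 40 higher and 6 lower, and TRIM ubiquitin ligases 7 of 51 higher and 13 lower. Peroxins, the import factors of peroxisomes, had 2 of 13 higher and 5 lower.

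**Figure D5:**
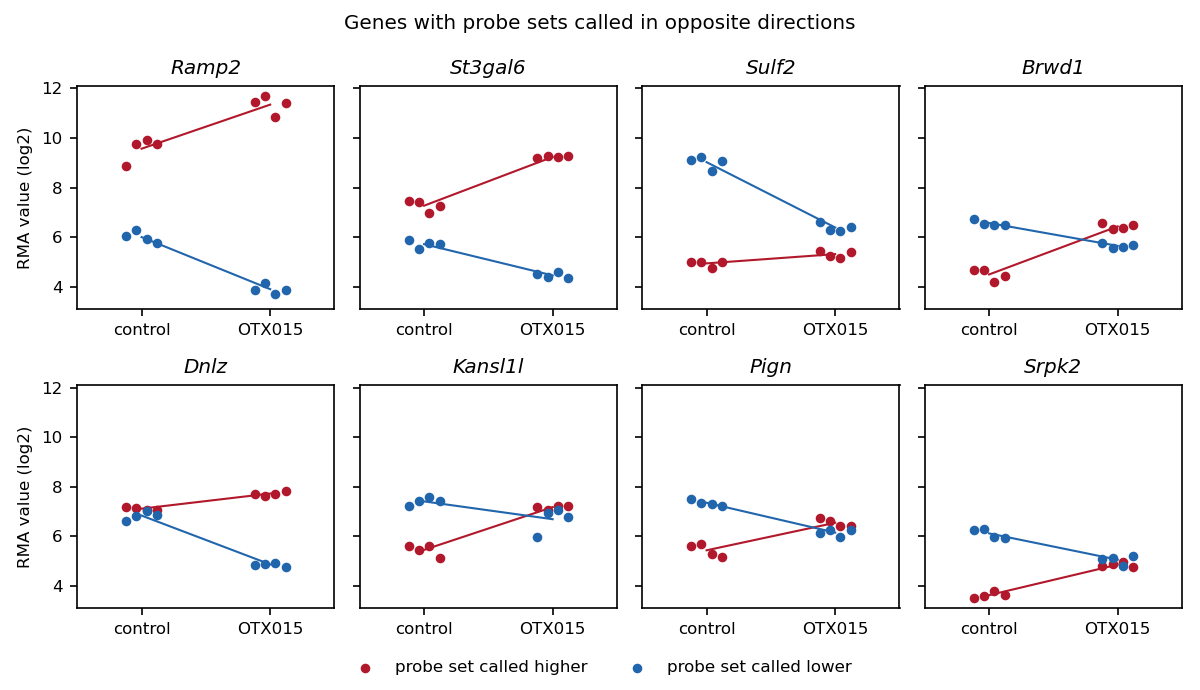
RMA values (y axis, log2) in the 4 control and 4 OTX015-treated cultures for the 8 genes with the widest gap between a probe set called higher (red) and one called lower (blue); points are cultures and lines join the group means. Ramp2 shows rise and fall without overlap, and in Dnlz both probe sets start near 7 and part with treatment.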

How the data were processed

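RNA of 8 culture arrays was measured on an Affymetrix 3′ array, with 500 ng of input RNA per the labels' protocols. The authors deposited log2 values, and the submitters' processing notes name RMA and the Transcriptome Analysis Console; versions, and which arrays were normalized together, are not given in the sources used here. RMA corrects background, gives arrays a common distribution and summarizes probes, so a change of total RNA per cell would not show. Arrays give no read depth; their number limits the precision.

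All 45141 probe sets were tested with limma 3.58.1 (R 4.3.3, lmFit and eBayes, two-sided, Benjamini-Hochberg). A gene is represented by the brightest (mean of 8 arrays) of the probe sets that name it alone: 28898 probe sets named 1 gene, 551 several and 15588 none. The fit was tested on simulated data. Members and the 95 lists were chosen with earlier results of these data known, and 70 genes caught by symbol but not by function were removed, and subgroups of lists were set, after values were seen. Genes named were up to 4 called rises and 4 called falls of largest size per list, above background in a group, and the 8 widest gaps between probe sets; exceptions are stated. Promoter letters came from RefSeq. Alternatives were other normalizations, filters, probe set choices, variance models, thresholds, a replicate block and leaving out each culture.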

Additional observations from a re-analysis of the deposited data

Results flagged for a closer look

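Single cultures stood apart from the other 3 of their group in 51 of 556 groups of 4 values tested for the genes named and the control probe sets (9.17%) by Dixon's test at its 95% level. Chance alone is set to give about 1 in 20. Treated replicate 1 accounted for 25 of them and control replicate 3 for 14. All values below are log2 values, each followed by the lowest and highest of the other 3 cultures of its group, and what sets these cultures apart was not tested.

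Treated replicate 1 differed in the 5′ signal of control probe sets. For Gapdh 5′ it was at 11.3, against 12.2 to 12.3. For β-actin 5′ it was at 10.6, against 11.6 to 11.7. For Gapdh 3′ minus 5′ it was at 0.958, against -0.0383 to 0.0235. For β-actin 3′ minus 5′ it was at 1.43, against 0.459 to 0.612. Among the genes, it was low in Cul2 7.06 against 7.22 to 7.24, Dusp14 5.12 against 6.08 to 6.16, Eif2s2 9.73 against 10.07 to 10.09 and Elf1 7.79 against 8.19 to 8.25. The same culture was also low in Il13ra1 3.70 against 3.96 to 4.00, Ints9 7.0 against 7.17 to 7.2, Pdha1 8.64 against 8.88 to 8.88 and Psmd2 9.31 against 9.47 to 9.50. Low values there were further those of Rab32 3.79 against 4.51 to 4.65, Rrm2 9.82 against 9.99 to 10.03, Sox11 9.85 against 10.26 to 10.33 and Sox4 10.40 against 10.65 to 10.68. It was high in Acly 10.48 against 10.19 to 10.22, Atg2a 6.02 against 5.25 to 5.34, Flna 8.83 against 8.57 to 8.59 and Itga4 7.19 against 6.81 to 6.86. Above the other treated cultures were likewise Man2b1 9.43 against 9.07 to 9.10, Msrb1 8.70 against 8.23 to 8.25, Nr4a1 6.72 against 6.52 to 6.53 and Polr2l 10.79 against 10.58 to 10.61. High values were also those of Tubb6 9.01 against 8.86 to 8.87.

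Control replicate 3 was low in Acly 8.44 against 8.89 to 8.97, Akap12 3.79 against 4.23 to 4.31, Akap13 5.23 against 6.04 to 6.08 and Ccnd1 8.13 against 8.61 to 8.70. Lower than the other control cultures were also Cdh2 8.30 against 8.74 to 8.80, Cers6 5.68 against 6.32 to 6.45, Fscn1 8.59 against 9.08 to 9.16 and Ogdh 6.65 against 7.01 to 7.07. It lay below them too in Prkar2b 6.99 against 7.25 to 7.30, Ttyh2 6.52 against 6.87 to 6.89 and Ulk1 5.08 against 5.39 to 5.45. It was high in Hbegf 4.64 against 4.42 to 4.45, Polr2c 9.0 against 8.60 to 8.66 and Taf1b 7.43 against 7.05 to 7.11.

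The other cultures had 1 to 3 such values each. In treated replicate 2, values apart from the group were Exo1 6.16 against 6.38 to 6.42. In treated replicate 3, values apart from the group were Fscn1 10.18 against 10.25 to 10.27 and Klf15 3.37 against 3.54 to 3.56. In treated replicate 4, values apart from the group were Hnrnpul2 8.35 against 8.11 to 8.13, Tead4 5.46 against 5.22 to 5.25 and Tfeb 5.06 against 5.18 to 5.21. In control replicate 1, values apart from the group were Acvrl1 6.05 against 6.42 to 6.45 and Slc12a2 7.45 against 7.26 to 7.29. In control replicate 2, values apart from the group were Ccn2 3.48 against 3.77 to 3.83 and Exo1 5.34 against 5.28 to 5.28. In control replicate 4, values apart from the group were Dnaja3 8.21 against 8.47 to 8.48 and Lars2 6.12 against 6.33 to 6.34. No call of a gene named here was lost without any 1 of the 8 cultures. Most of these genes were picked for large changes in the same 8 cultures, which favours keeping a call.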

How the results depend on the processing

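With a 1.5-fold minimum beside the adjusted p of limma, 6509 probe sets, 1386 genes higher and 1987 lower were called, in place of 13132, 2775 and 3623. A fit of all 6 groups in the series called 1816 genes higher and lost 8 of the 269 genes named. Leaving out each culture in turn gave 11554 to 13210 probe sets, 2426 to 2728 genes higher and 3322 to 3601 lower. Under the other normalizations, filters and variance models run, these 3 counts stayed within 1.5 times. Quantile normalization moved the share of called genes that were higher from 43.4% to 47.3%, and leaving the control probe sets out of the adjustment, chosen after seeing the data, gave 13158 probe sets. Of the genes named, Hnrnpa2b1 reversed, at -0.99 with the probe set brightest over all 40 arrays, and 2 lost their call there. Averaging all probe sets of a gene moved the log2 change of 74 by more than 1.5 times. Signal near the background level limits the size of changes that start or end there.

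The labels do not say whether replicate numbers pair the cultures. Deviations of same-numbered control and treated cultures correlated, across probe sets, at 0.252, -0.0873, 0.115 and -0.026. Not every culture correlated best with its own number. The deviations are taken from group means, so these values are not independent of each other and cannot settle the question. With the number as a block, 12710 probe sets, 2691 genes higher and 3524 lower were called. No named gene lost its call, but most had been picked for large changes.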
